A study of Mus musculus with 2 samples.

Results

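The 10 genes described here are 6 Wnt ligands (*Wnt3a*, *Wnt2b*, *Wnt5a*, *Wnt8b*, *Wnt7a* and *Wnt7b*), 3 R-spondins (*Rspo1*, *Rspo2* and *Rspo3*) and the LIM-homeodomain transcription factor *Lmx1a*. They were taken by gene symbol from 2 single-cell RNA-seq libraries of the embryonic mouse brain, where each symbol matched 1 row, out of 28001 features (septal explants) and 32286 features (telencephalic vesicle). The first library pooled explants around the septum from 8 *PGKCre;Rosa26YFP* embryos at E11.5 and 4 *Dbx1Cre;Rosa26tdTomato* embryos at E12.5, each genotype from 2 litters. The *Pgk1* promoter of *PGKCre* is active in nearly every cell, whereas *Dbx1Cre* marks only cells that descend from *Dbx1*-expressing progenitors, and no cells were sorted. The second library pooled whole telencephalic vesicles of 3 wild-type embryos from 2 litters, labelled E12 in GEO and given as E11.5 to E12 in the methods. GEO's labels give both libraries the genotype wild-type and the strain C57BL/6J.

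Each condition was a single library of pooled embryos, so there was no replicate of a tissue and no test between conditions. Values are the summed unique molecular identifiers (UMIs, one per captured mRNA) of a gene in a class of cells per 1000000 UMIs of that class (CPM). Brackets give exact 95% Poisson intervals for levels, exact conditional intervals for ratios and Clopper-Pearson intervals for shares of cells, all of which cover counting error only. The libraries were read separately, since they were made with different kits (v2 and v3.1) and different Cell Ranger versions. After filtering, 5384 and 11758 cells remained, with median depths of 12868.5 and 9058.5 UMIs per cell, and 1 barcode sequence was shared between the kept cells of both libraries. Genes were called in a comparison when their CPM differed at least 2-fold and at least 50 UMIs were counted in the cells compared.

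Wnt proteins are lipid-modified ligands that bind Frizzled receptors on nearby cells. *Wnt3a*, *Wnt8b*, *Wnt7a* and *Wnt7b* are best known for the β-catenin pathway, and *Wnt5a* for β-catenin-independent signalling. R-spondins do not start the signal but strengthen it, by binding Lgr receptors and removing the ubiquitin ligases Rnf43 and Znrf3, which otherwise clear Frizzled from the membrane. In the telencephalon, the cortical hem at the medial edge of the pallium is the classical Wnt source. It borders the choroid plexus epithelium, patterns the hippocampus and gives rise to many Cajal-Retzius (CR) neurons, and *Lmx1a* is a transcription factor of the hem and of other dorsal midline domains.

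The genes lie on 9 chromosomes, with *Rspo2* and *Wnt7b* both on chromosome 15. Among the ligand genes, in GENCODE M21 (GRCm38) *Wnt3a* lies at chr11:59248033-59290752 on the minus strand and *Wnt8b* at chr19:44493472-44514273 on the plus strand. *Rspo1* spans chr4:124986430-125009099, *Rspo2* chr15:43020794-43170826, *Rspo3* chr10:29452416-29535867 and *Lmx1a* chr1:167689237-167848741. Antisense or overlapping noncoding genes are annotated across part of *Wnt2b*, *Wnt5a*, *Wnt7b*, *Rspo1* and *Rspo3*. The sequence upstream of the RefSeq start is shown for *Wnt3a*, *Wnt8b* and *Rspo1*. These 3 genes share their highest class in the ranking of progenitor classes below and differ widely in upstream base composition. The windows (RefSeq, GRCm38.p6, 5′ to 3′ on the strand of the gene) are chr11:59290753-59291001 on the minus strand, chr19:44493222-44493471 on the plus strand and chr4:124986180-124986429 on the plus strand. Capitals mark the letters TAATTA, the palindromic core bound by LIM-homeodomain factors as well as many other homeodomain proteins.
Wnt3a: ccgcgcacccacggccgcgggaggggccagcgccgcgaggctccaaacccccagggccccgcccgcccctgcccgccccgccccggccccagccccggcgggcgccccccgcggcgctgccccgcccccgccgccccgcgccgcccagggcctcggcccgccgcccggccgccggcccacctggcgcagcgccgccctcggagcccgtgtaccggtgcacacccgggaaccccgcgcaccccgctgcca
Wnt8b: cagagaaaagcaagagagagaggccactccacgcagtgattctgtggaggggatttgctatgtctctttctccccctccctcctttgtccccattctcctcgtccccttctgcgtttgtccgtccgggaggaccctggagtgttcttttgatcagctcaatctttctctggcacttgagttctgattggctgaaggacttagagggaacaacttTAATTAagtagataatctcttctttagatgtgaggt
Rspo1: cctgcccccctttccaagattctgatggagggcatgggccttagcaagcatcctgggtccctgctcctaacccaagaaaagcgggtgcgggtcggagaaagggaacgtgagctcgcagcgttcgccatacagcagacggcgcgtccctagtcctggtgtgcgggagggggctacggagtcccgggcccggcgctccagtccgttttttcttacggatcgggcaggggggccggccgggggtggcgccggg
The *Wnt3a* window held 41 CpG dinucleotides and 87.6% G or C, the *Rspo1* window 22 CpG and 66.8%, and the *Wnt8b* window 5 CpG and 48.4%. The median over 32851 windows of 250 bases was 6 CpG. TAATTA occurred in 1 of the 6 members with an entry (*Wnt8b*, beginning 36 bases before the start) and in 4.84% of all windows. The core letters of TCF/LEF sites, CTTTGA or TCAAAG, occurred in 0 of the 6 and in 13.8% of all windows. Member windows were cut where an exon of the gene began, to 38 bases for *Wnt2b* and 240 for *Wnt7a*. These counts are therefore not strictly like the shares of all windows. Both strands were searched, and the match describes letters only.

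Cell classes were read from marker genes that exclude all 10 members. Clustering left out the members and the other Wnt pathway genes as well. The hem-like class was 1 cluster in each library, with 170 cells (septal explants) and 470 cells (telencephalic vesicle). Of the 8 hem markers (*Bmp4*, *Bmp6*, *Bmp7*, *Msx1*, *Msx2*, *Msx3*, *Gdf7* and *Id3*), 5 and 7 were more than 1.5 times as high as in the rest, and *Gdf7* had 0 UMIs in both. Against the mean of the other clusters, the hem-like cluster of the septal explants had 4 hem and 5 septal markers raised, with mean scaled marker levels of 1.90 for the hem and 0.773 for the septal list. Of the clusters named from regional or neuronal lists, 3 had a higher mean scaled level for another list of the same kind, all in the septal explants. They were subpallial-like clusters of 311 cells (1.20 septal against 0.844 subpallial) and 87 cells (1.11 against 0.87), and a CR-like cluster of 162 cells (1.67 pallial glutamatergic neuron against 0.991 CR). For the members, some comparisons are also given without them. These are hem-like cells against other regional progenitors, CR-like against hem-like cells and other neurons, and pallial-like and septal-like against subpallial-like progenitors. Neurons against progenitors, the ranking of progenitor classes, the differentiation axis and the pathway genes were not recomputed without them. Other regional progenitors were the septal-like, pallial-like, ventral pallial-like and subpallial-like apical progenitors (APs), 2248 and 4997 cells. The ventral pallial-like class was found in the telencephalic vesicle and not in the septal explants. APs that matched no region were kept apart (670 and 1219 cells).

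Most members were higher in the hem-like class than in the other regional progenitors. Among all genes tested, 2.93% were at least 2-fold higher in hem-like cells than in other regional progenitors of the septal explants and 4.15% lower, and in the telencephalic vesicle 5.72% were higher and 7.31% lower. Of the 10 members, 8 were higher and 1 lower in each library. In the septal explants the remaining member, *Wnt2b*, was under the minimum, and in the telencephalic vesicle *Wnt5a* was within 2-fold. Without the 2 subpallial-like clusters that scored higher as septal, 8 members were again higher and 1 lower. The size of the ratios depended on the clustering, the cell filters and the progenitors they were compared with. Over the alternatives, *Wnt3a* ranged from 32.3 to 206 and from 32.2 to 145, *Rspo2* from 74.6 to 393 and from 23.8 to 241 and *Lmx1a* from 16.6 to 80 and from 40.8 to 245.

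**Figure D1:**
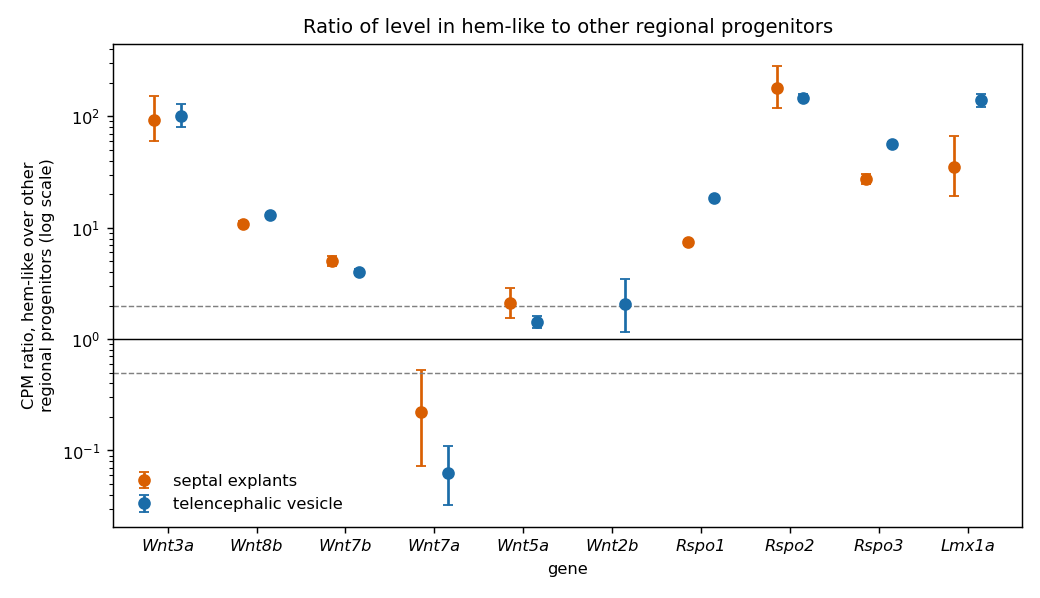
Ratio of CPM in hem-like cells to other regional progenitors for each of the 10 members in the 2 libraries, on a log axis, with exact 95% intervals for counting error as bars and dashed lines at 2-fold either way. *Wnt3a*, *Rspo2*, *Rspo3* and *Lmx1a* lie above 20-fold in both libraries, *Wnt8b*, *Rspo1* and *Wnt7b* between 3.99 and 18.3, and *Wnt7a* lies below 1 in both.

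Among the ligands, *Wnt3a*, a strong activator of β-catenin signalling that is required for hippocampal growth, had the largest hem-like ratio. It reached 59.1 CPM (51.0-68.1) in hem-like cells of the septal explants against 0.634 CPM in other regional progenitors, 93.3-fold (59.9-152). Its values in the telencephalic vesicle were 80.3 CPM (75.2-85.7) and 0.799 CPM, 101-fold (80-128). *Wnt3a* was below 3 CPM in every regional AP class of both libraries. A UMI of *Wnt3a* was found in 44.1% of hem-like cells (36.5-51.9) of the septal explants and 62.8% (58.2-67.2) of those of the telencephalic vesicle. GABAergic neuron-like cells, which should lack the gene, gave 0 of 249 and 0 of 724 cells, which allows shares of up to 1.20% and 0.414%, at median depths of 10236 and 6628.5 UMIs against 17148 and 12489.5 in hem-like cells.

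*Wnt8b*, a ligand of the medial pallium and hem, was graded over the progenitor classes. Its level in the septal explants was 489 CPM in hem-like cells, 91.4 in pallial-like, 65.8 in septal-like and 18.2 in subpallial-like APs. The same order gave, for the telencephalic vesicle, 622, 119, 51.8 and 3.46 CPM, with 3.96 CPM in ventral pallial-like APs. Hem-like over other regional progenitors was 10.8-fold (10.1-11.6) and 13.1-fold (12.6-13.6). A UMI was found in 85.9% and 97.7% of hem-like cells and in 20.3% and 15.6% of the other regional progenitors.

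*Wnt7b* and *Wnt7a*, which are closely related ligands, went in opposite directions. *Wnt7b* was 155 CPM in hem-like cells against 31.0 in other regional progenitors of the septal explants (5.01-fold, 4.50-5.57) and 156 against 39.0 CPM in the telencephalic vesicle (3.99-fold, 3.77-4.22). *Wnt7a* was 1.54 CPM (5 UMIs in 170 cells) against 6.88, a ratio of 0.224 (0.0719-0.529), and 1.06 CPM (12 UMIs in 470 cells) against 16.8, a ratio of 0.0630 (0.0325-0.110). The share of hem-like cells with a *Wnt7a* UMI, 2.94% and 2.34%, overlapped in its interval with that of erythroid-like cells (3.85% and 1.25%). The erythroid-like class was only 26 cells in the septal explants, at a median of 29045.5 UMIs against 17148 in hem-like cells. In the telencephalic vesicle it was 400 cells, at 5428.5 against 12489.5 UMIs. The overlap is therefore only a loose guide to background, above all in the septal explants. At the coarser clustering (Leiden resolution 0.8), which enlarged the hem-like class of the septal explants to 293 cells, the *Wnt7a* ratio there was 1.07.

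*Wnt5a* and *Wnt2b* were not hem-restricted in these cells. *Wnt5a* was 16.6 CPM (12-22) in hem-like cells and 7.84 CPM in other regional progenitors of the septal explants, 2.12-fold (1.55-2.85), which fell to 1.17-fold at the coarser clustering. For the telencephalic vesicle they were 24.0 and 16.8 CPM, 1.43-fold (1.25-1.62). *Wnt2b* had 2 UMIs in the 5384 cells of the septal explants. In the telencephalic vesicle it was 1.59 CPM (18 UMIs, 0.942-2.51) in hem-like cells and 0.769 CPM in the others, a ratio of 2.07 (1.16-3.48) that was between 1.64 and 2.33 over the alternatives, so its call depended on the setting.

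The 3 R-spondins were all high in hem-like cells, and each had its own reach outside them. *Rspo2* was nearly absent from other regional progenitors of the septal explants, with 124 CPM (112-137) against 0.691 CPM, 179-fold (119-283). *Rspo2* of the telencephalic vesicle was 1202 against 8.17 CPM, 147-fold (137-158). *Rspo3* was 441 against 16.1 CPM (27.4-fold, 24.9-30.3) and 1566 against 27.5 CPM (56.9-fold, 54.7-59.2). *Rspo1* was the broadest, at 823 against 111 CPM (7.41-fold, 7.05-7.78) and 793 against 43.3 CPM (18.3-fold, 17.7-19.0).

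Per cell, *Rspo1* was found in 98.2% of hem-like cells of the septal explants, *Rspo3* in 80% and *Rspo2* in 49.4% (41.7-57.2). The telencephalic vesicle gave 97.0%, 99.8% and 99.1%. Erythroid-like cells of the telencephalic vesicle, which should lack these ligands, gave 2.25%, 2.5% and 1.5% at a median of 5428.5 UMIs. All 3 R-spondins were found together in 81 of the 170 hem-like cells (47.6%) and 451 of the 470 (96.0%), against 0.982% and 2.89% of septal-like APs. After thinning to 8000 and 3500 UMIs per cell, *Rspo2* was still in 41.2% and 95.1% of hem-like cells and *Rspo1* in 94.5% and 87.3%, with 5 and 4 shallower cells left out.

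Like the R-spondins, *Lmx1a* was higher in hem-like cells of the septal explants. It was 15.1 CPM (11.2-19.9) in hem-like cells against 0.432 CPM in other regional progenitors, 34.9-fold (19.3-67.0), and a UMI was seen in 17.1% of hem-like cells. *Lmx1a* of the telencephalic vesicle was 296 CPM (286-306) against 2.13 CPM, 139-fold (121-160), and 88.1% of hem-like cells had a UMI. GABAergic neuron-like cells gave 0.402% and 1.52%. Erythroid-like cells, the reference used for the R-spondins, were not low in *Lmx1a*. In the septal explants their level and their share of cells with a UMI were above those of hem-like cells, as given under other observations. The levels of *Lmx1a*, *Rspo2* and *Rspo3* in hem-like cells were 19.6, 9.69 and 3.55 times as high in the telencephalic vesicle as in the septal explants, while those of *Wnt3a*, *Wnt5a*, *Wnt8b*, *Wnt7b* and *Rspo1* were 0.964 to 1.45 times. The former 3 are the longest genes of the 10 (160, 150 and 83.5 kb, the others 16.6 to 47.4 kb). Over 9916 genes with at least 10 UMIs in hem-like cells of each library, the median ratio was 0.708 for genes under 10 kb and 3.36 for those of 80 kb and over. Tissue, age, kit and Cell Ranger version differed between the libraries and cannot be told apart, so no difference between the tissues is read from these ratios.

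Members were also ranked over the progenitor classes, including APs without a region but not the choroid plexus-like class. In this ranking 8 members were highest in hem-like cells among the 5 classes of the septal explants, against 25.9% of all genes tested. With choroid plexus-like cells counted among the classes, 5 were, because *Wnt3a*, *Rspo2* and *Lmx1a* were higher in choroid plexus-like cells. Of the 8 counted without that class, *Wnt5a* was the least separated (16.6 CPM, then 10.2 in septal-like APs). The ninth measured member, *Wnt7a*, was highest in APs without a region (21.8 CPM). In the telencephalic vesicle 7 of 10 were highest in hem-like cells of 6 classes, against 26.1% of all genes. Choroid plexus-like cells, not ranked here, held slightly more *Rspo3* and *Lmx1a* than hem-like cells in that library too. Over the alternative settings its count ranged from 5 to 8. Among the 7, *Wnt2b* (1.59 CPM, then 1.11 in subpallial-like APs) was not separated beyond counting error. The exceptions were *Wnt5a*, highest in subpallial-like APs (25.9 CPM, 24.4-27.4) though not beyond counting error from hem-like cells (24.0 CPM, 21.3-27.1), *Wnt7a*, highest in ventral pallial-like APs (37.9 CPM), and *Wnt7b*, where APs without a region (158 CPM) and hem-like cells (156 CPM) did not differ beyond counting error.

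**Figure D2:**
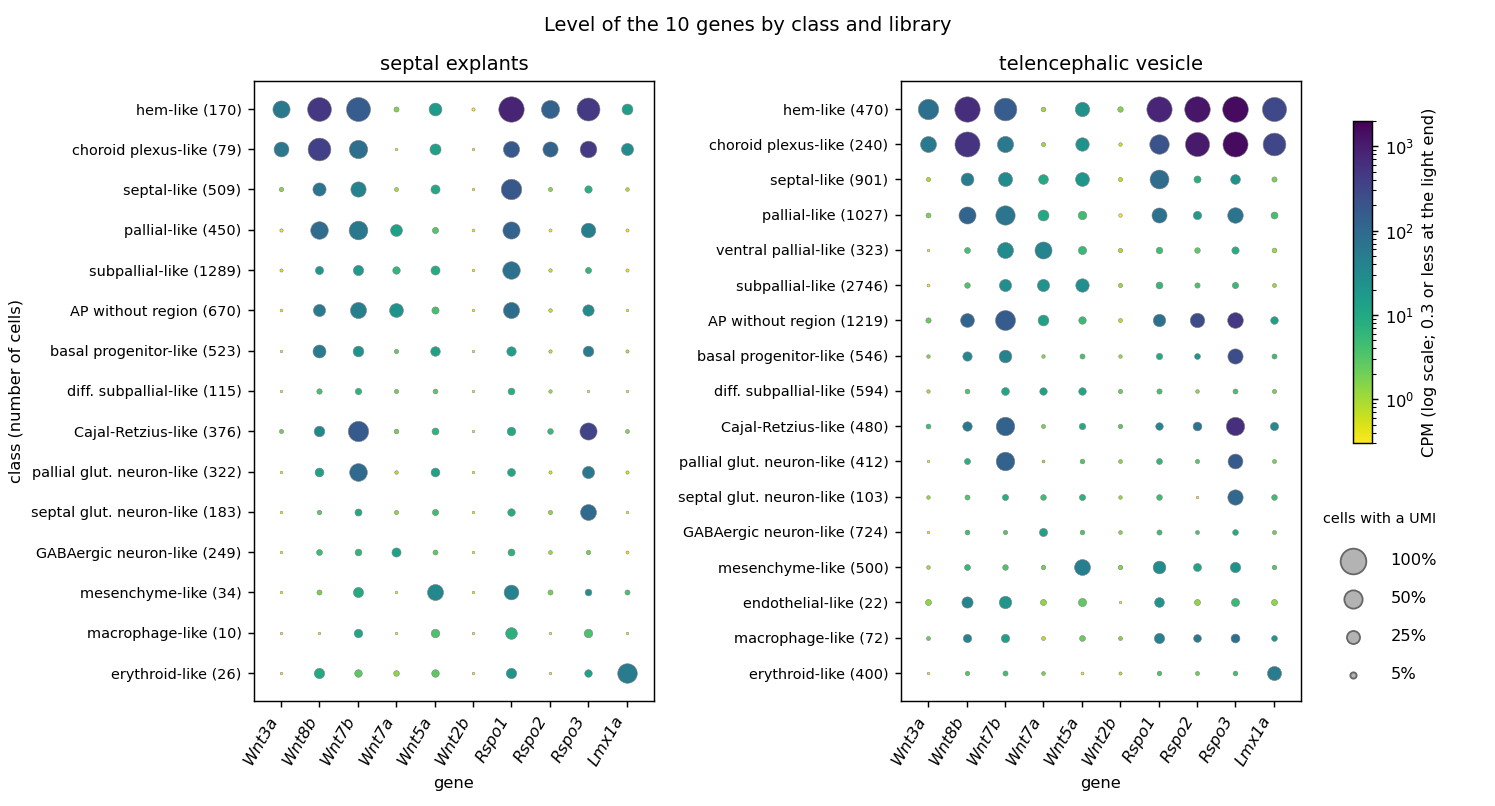
Level of each of the 10 members (columns) in each cell class (rows, with its number of cells) of both libraries, with colour for CPM on a log scale and dot area for the share of cells with a UMI. Hem-like and choroid plexus-like cells carry the highest values of *Wnt3a* and *Rspo2* in both libraries and of *Lmx1a* in the telencephalic vesicle, *Lmx1a* of the septal explants is highest in erythroid-like cells, and *Rspo3* and *Wnt7b* are also high in Cajal-Retzius-like neurons and *Wnt5a* in mesenchyme-like cells.

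A cluster of 420 APs in the telencephalic vesicle that matched no region, led by *Foxb1*, *Gdf10* and *Sfrp2*, carried part of the hem pattern. *Rspo3* was 1029 CPM in it, *Rspo2* 591, *Wnt8b* 274, *Wnt7b* 264 and *Rspo1* 161 CPM. *Wnt3a* was only 4.79 CPM and *Lmx1a* 28.9 CPM there, against 80.3 and 296 CPM in hem-like cells. *Wnt7b* was thus higher in this cluster than in the hem-like class, while *Wnt3a*, *Wnt8b*, *Rspo1*, *Rspo2*, *Rspo3* and *Lmx1a* were lower. *Wnt2b* was 0.798 CPM (0.321-1.64) against 1.59 (0.942-2.51), with overlapping intervals. With such APs added to the other progenitors, the *Rspo2* ratio of the telencephalic vesicle was 23.8 and the *Rspo3* ratio 15.4, and 8 members still passed 2-fold.

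The choroid plexus-like class, the epithelium next to the hem, held most of the ligands at levels within 2-fold of the hem-like class. It held 79 cells in the septal explants, led by *Pax3*, *Grem1*, *Folr1* and *Bmp4* with *Kcne2* at 0, and 240 in the telencephalic vesicle, led by *Ttr*, *Htr2c* and *Clic6* with *Aqp1* at 0. Compared with hem-like cells, 5.67% and 3.42% of genes were at least 2-fold lower and 4.59% and 5.08% higher. *Rspo1* was lower in both libraries, at 177 CPM (ratio 0.215, 0.184-0.249) and 212 CPM (0.267, 0.248-0.287). *Wnt7b* was 86.6 CPM (0.558, 0.442-0.698), within 2-fold, and 54.2 CPM (0.348, 0.30-0.403), lower. *Wnt3a*, *Wnt5a*, *Wnt8b*, *Rspo2*, *Rspo3* and *Lmx1a* were within 2-fold in both, with ratios from 0.675 to 1.75. *Rspo3* was at 435 against 441 CPM and 1571 against 1566 CPM, and *Lmx1a* at 26.3 against 15.1 CPM and 313 against 296 CPM. Cell by cell the 2 classes were less alike. In the septal explants 45.6% of choroid plexus-like cells had no R-spondin UMI, against 0.588% of hem-like cells. All 3 R-spondins were found in 21.5% against 47.6% of cells there and 54.6% against 96.0% in the telencephalic vesicle. Median depths were 11478 against 17148 UMIs and 12039 against 12489.5 UMIs.

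Outside the midline, most measured members differed at least 2-fold between pallial-like and subpallial-like APs. In the telencephalic vesicle, pallial-like APs exceeded subpallial-like APs at least 2-fold in 7 members and fell below them in 3, where 3.49% of genes were higher and 6.01% lower. *Wnt8b* was 119 against 3.46 CPM (34.3-fold, 29.1-40.7), *Rspo1* 71.3 against 5.64 (12.6-fold, 11.1-14.5) and *Rspo3* 67.4 against 5.36 CPM (12.6-fold, 11-14.5). *Wnt5a* went the other way, at 4.53 against 25.9 CPM (0.175, 0.145-0.210). Among septal explant cells 4 members were higher and 1 lower (background 2.89% and 5.52%), led by *Rspo3* at 46.4 against 6.37 CPM (7.29-fold, 5.93-9.0), and *Wnt5a* was again lower (0.358, 0.228-0.543). *Rspo1* was within 2-fold there, at 122 and 78.7 CPM. The 5 subpallial-like clusters of the septal explants were not alike, since one of 311 cells held 142 CPM of *Rspo1* and 57.4 CPM of *Wnt8b*, while the other 4 held 55.1 to 72.4 CPM and 2.90 to 22.1 CPM. That cluster is one of the pair that scored higher as septal. Without the pair, 3 members were higher and 1 lower, with *Wnt8b* 9.87-fold higher (8.18-12) and *Rspo3* 9.80-fold (7.54-12.9) in pallial-like APs, and *Wnt7a* went from 2.29-fold higher to 1.74-fold, within 2-fold.

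Compared with subpallial-like APs, septal-like APs had more *Rspo1* and *Wnt8b* and less *Wnt7a*. Pallial-like APs held more *Wnt8b* than septal-like APs in both libraries, and about as much *Wnt7a* in the telencephalic vesicle. Over subpallial-like APs, *Rspo1* was 2.35-fold higher (185 against 78.7 CPM) in the septal explants and 16.5-fold (92.9 against 5.64 CPM) in the telencephalic vesicle. *Wnt8b* was 3.61-fold and 15-fold higher. In all, 3 members were higher and 1 lower in the septal explants (background 3.64% and 1.23%) and 4 and 1 in the telencephalic vesicle (5.29% and 2.83%), and the lower one was *Wnt7a* in both, with ratios of 0.158 (0.0621-0.335) and 0.458 (0.392-0.532). Without the pair of clusters, 3 members were still higher and 1 lower in the septal explants, with *Rspo1* at 2.88-fold and *Wnt8b* at 7.11-fold. Over pallial-like APs, *Wnt5a* was the single member that was higher in each library, 3.19-fold (2.02-5.20) and 4.30-fold (3.53-5.26), while 2 and 6 members were lower (background 7.44% higher and 3.07% lower for the septal explants, 6.98% and 2.42% for the telencephalic vesicle). *Rspo3* was lower in both, at 7.85 against 46.4 CPM (0.169) and 23.0 against 67.4 CPM (0.342).

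*Wnt7a* and *Wnt5a* marked different places. *Wnt7a*, a ligand of ventricular zone progenitors, was 37.9 CPM (33.5-42.7) in ventral pallial-like APs of the telencephalic vesicle, 21.5 in subpallial-like, 10.1 in pallial-like and 9.84 CPM in septal-like APs. Septal explants had 21.8 CPM in APs without a region, 14.0 in pallial-like, 6.11 in subpallial-like and 0.964 CPM in septal-like APs. *Wnt5a* had its highest class outside the neuroepithelium, at 32.7 CPM (19.0-52.3) in 34 mesenchyme-like cells of the septal explants and 47.9 CPM (42.9-53.2) in 500 mesenchyme-like cells of the telencephalic vesicle, of which one cluster held 64.7 and another 32.7 CPM. Mesenchyme-like cells had 0 and 1.97 CPM of *Wnt7a*.

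**Figure D3:**
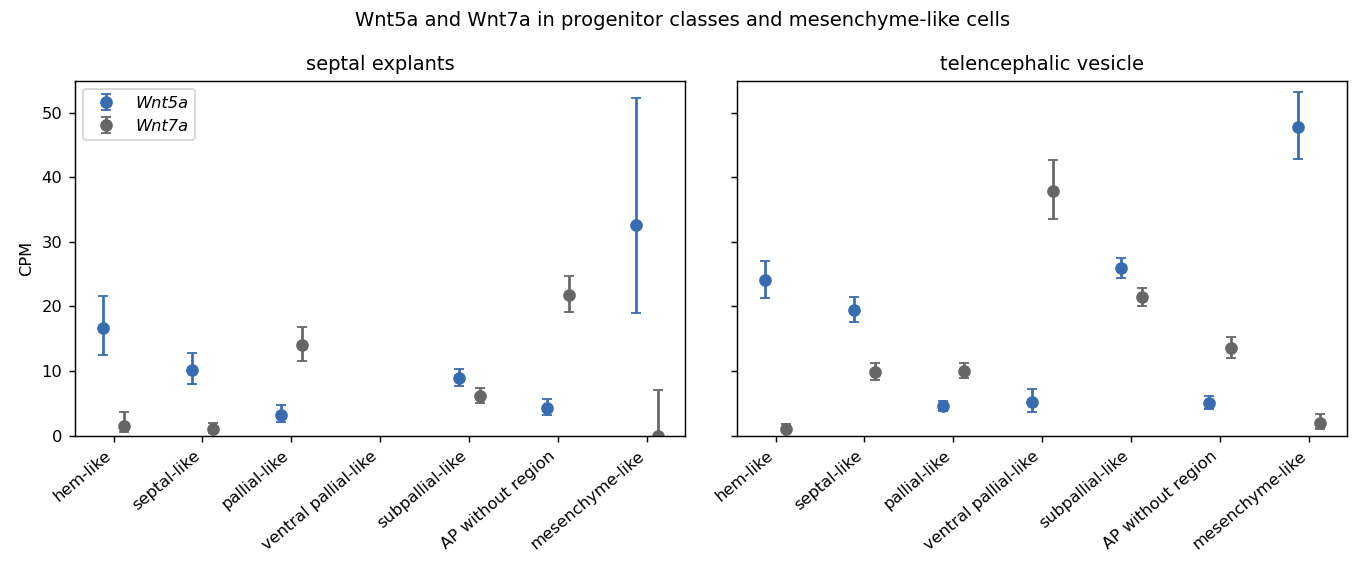
Level in CPM of *Wnt5a* and *Wnt7a* in the hem-like, septal-like, pallial-like, ventral pallial-like and subpallial-like APs, APs without a region and mesenchyme-like cells of each library, with exact 95% Poisson intervals for counting error as bars. *Wnt7a* is at 1.54 and 1.06 CPM in hem-like cells, and *Wnt5a* is highest in mesenchyme-like cells, at 32.7 and 47.9 CPM.

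From progenitors to neurons, *Wnt3a*, *Wnt8b*, *Wnt7a*, *Rspo1* and *Rspo2* were at least 2-fold lower in both libraries, and *Rspo3* and *Wnt7b* in neither. Neurons of the CR-like, glutamatergic and GABAergic classes (1130 and 1719 cells) were compared with all APs. In the septal explants 2 members were at least 2-fold higher and 5 lower, where 17.8% of genes were higher and 16.4% lower, and in the telencephalic vesicle 1 (*Wnt2b*, 1.85 against 0.838 CPM, from 25 UMIs in neurons) was higher and 7 lower, where 16.9% and 19.8% were. The 2 that were higher in the septal explants were *Rspo3* and *Wnt7b*. *Wnt5a* and *Lmx1a* were lower in the telencephalic vesicle (0.346 and 0.364) and within 2-fold in the septal explants (0.936 and 0.565). *Rspo1* fell furthest in both libraries, to ratios of 0.0616 (0.0514-0.0734) and 0.123 (0.105-0.142), with *Wnt8b* at 0.222 and 0.198 and *Wnt3a* at 0.168 and 0.191. *Rspo3* was 3.28-fold higher (3.09-3.48) in neurons of the septal explants and at 1.03 (0.994-1.07) in the telencephalic vesicle. *Wnt7b* was 2.14-fold higher (2.0-2.30) in the former, 1.87-fold with classes gated cell by cell, and at 1.03 (0.962-1.10) in the latter.

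Along an axis made from the ratio of 11 neuronal to 9 AP markers, in 10 bins of equal cell number, *Rspo3* fell, rose again and fell in the last bin. Its levels in the septal explants were 139 CPM (131-148) in the first bin, 16.8 (13.8-20.1) in the sixth, 165 (154-176) in the eighth and 65.6 CPM in the last. Those of the telencephalic vesicle were 453 CPM in the first bin, 141 in the sixth, 294 (281-306) in the ninth and 97.3 CPM in the last. *Wnt7b* also fell and rose, from 73.0 through 19.2 to 90 CPM in the septal explants and from 92.7 through 39.1 to 80.4 CPM in the telencephalic vesicle. *Rspo1* was lowest in the last bin, going from 308 to 5.28 CPM and from 176 to 4.09 CPM. Each bin mixes regions, and the first and later bins hold different classes.

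**Figure D4:**
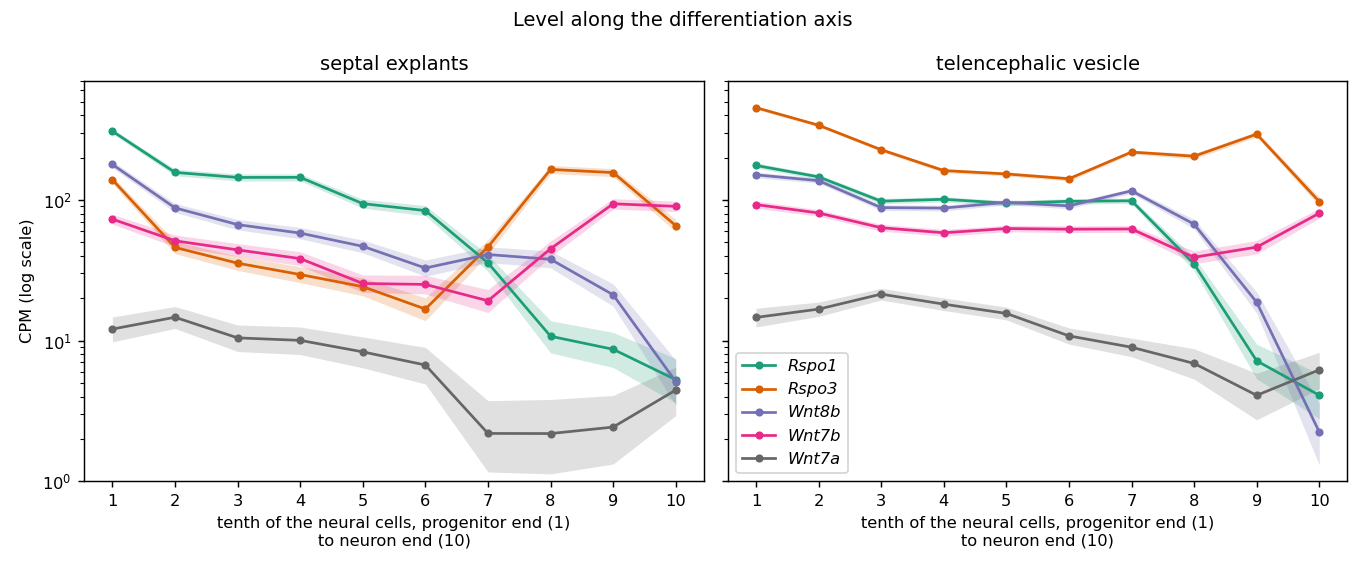
Level in CPM (log axis) of *Rspo1*, *Rspo3*, *Wnt8b*, *Wnt7b* and *Wnt7a* in 10 bins of cells ordered from apical progenitor to neuron, in each library, with exact 95% Poisson intervals for counting error as bands. *Rspo3* falls to 16.8 CPM in the sixth bin of the septal explants and is 165 CPM in the eighth, while *Rspo1* ends at 5.28 CPM.

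Among the neuron classes of both libraries, *Rspo3* was highest in CR-like cells, the early-born reelin-secreting neurons of the marginal zone. *Wnt7b* was highest there in the septal explants, while in the telencephalic vesicle pallial glutamatergic neuron-like cells held about as much. Against other neurons, 3 members were at least 2-fold higher and 1 lower in CR-like cells of the septal explants (background 3.94% and 2.1%), and 7 were higher and 1 lower in the telencephalic vesicle (3.97% and 2.63%). *Rspo3* was 346 CPM (330-363), 6.68-fold higher (6.02-7.42), and 614 CPM (589-638), 8.21-fold (7.55-8.94). *Wnt7b* was 172 CPM, 3.60-fold (3.20-4.06), and 124 CPM, 2.62-fold (2.30-2.99), and *Wnt8b* was 4.13-fold and 10.9-fold higher. *Rspo2* (22.4-fold), *Lmx1a* (13.8-fold), *Rspo1* (6.69-fold) and *Wnt5a* (2.62-fold) were higher in the telencephalic vesicle. In the septal explants 4 members were under the minimum, *Rspo2* and *Lmx1a* among them, so they could not be called there. *Rspo1* and *Wnt5a* were within 2-fold in that library. *Wnt7a* was lower in both libraries, at 0.393 and 0.211. Without the cluster of 162 cells, the same 3 members were higher in the septal explants (*Rspo3* with an interval of 11.3 to 13.9, *Wnt8b* 7.39-fold and *Wnt7b* 4.85-fold), and *Wnt7a* was under the minimum.

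Against hem-like cells, *Wnt7b* was within 2-fold in CR-like cells of both libraries, with ratios of 1.11 (0.991-1.24) and 0.794 (0.717-0.878). *Rspo3* was at 0.785 (0.731-0.843) and 0.392 (0.375-0.409). In this comparison 7 members were lower in the telencephalic vesicle and 0 were higher, where 17.7% of genes were lower and 14.3% higher. For the septal explants 6 were lower, where 1174 of 9413 genes were, and 0 higher, where 17% of genes were. Without the cluster of 162 cells 5 were lower there, *Wnt5a* came within 2-fold (0.587), and *Rspo3* and *Wnt7b* were at 1.47 (1.37-1.58) and 1.49 (1.32-1.69). The lowest ratio was that of *Rspo1*, at 0.0123 and 0.0432.

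Within the CR-like class, *Rspo3* differed widely between clusters. In the septal explants a cluster of 52 cells led by *Mcidas*, *Gmnc*, *Foxj1* and *Trp73* held 1272 CPM of *Rspo3* (1184-1366), a cluster of 62 cells 598 CPM, a cluster of 100 cells 380 CPM and a cluster of 162 cells led by *Calb2* and *Ebf1* 3.97 CPM (1.82-7.54). The last is the cluster that scored higher as pallial glutamatergic neurons (6 of their markers raised, against 4 of the CR list), and without it the lowest value is 380 CPM. Their median position on the axis was 2.51, 2.77, 3.60 and 4.78, from less to more neuronal. In the telencephalic vesicle a cluster of 184 cells led by *Mcidas*, *Ccno* and *Trp73* held 1404 CPM of *Rspo3* (1343-1466) at an axis position of 2.58, and one of 296 cells led by *Calb2* held 161 CPM (146-177) at 4.62. *Wnt8b* was ordered the same way, at 148, 52.9, 22.1 and 3.53 CPM and at 157 and 3.97 CPM. *Wnt7b* was not, at 120, 109, 353 and 104 CPM and at 92.1 and 142 CPM. The CR-like cluster of 184 cells also held 176 CPM of *Rspo2*, 81.0 of *Rspo1* and 79.0 of *Lmx1a*, and was thus the source of most of the CR-like UMIs of these genes (254 of 270 for *Rspo2*, 114 of 120 for *Lmx1a*).

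**Figure D5:**
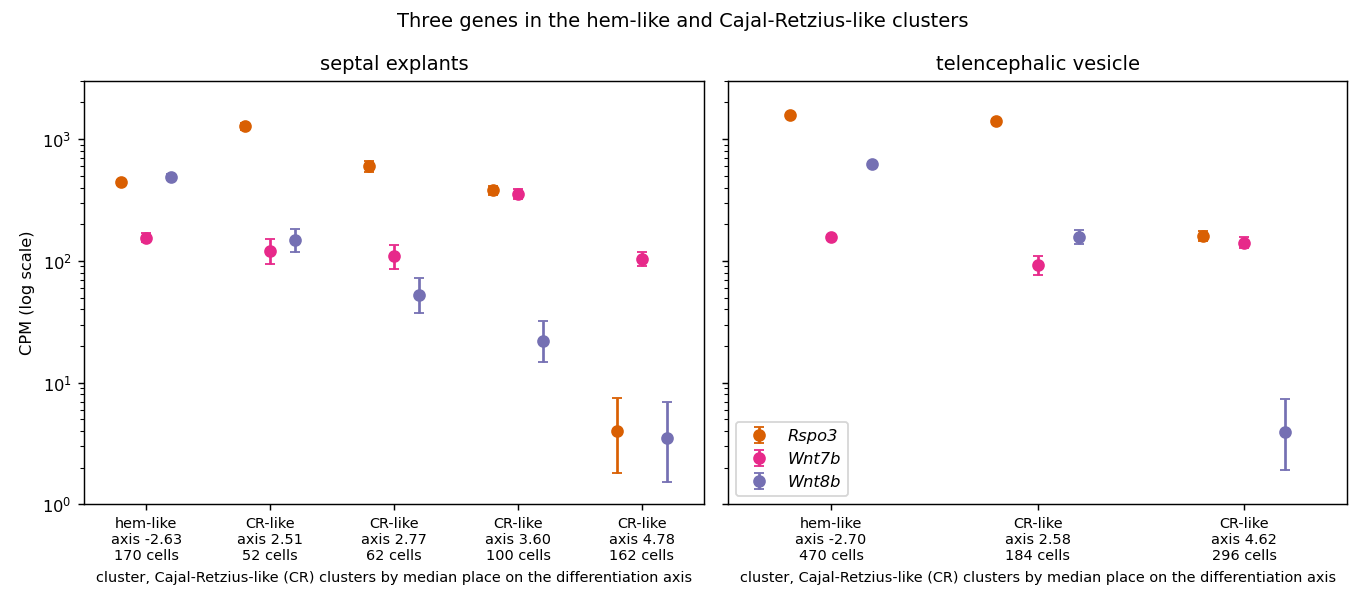
Level in CPM of *Rspo3*, *Wnt7b* and *Wnt8b* (log axis) in the hem-like cluster and each CR-like cluster, the latter in order of their median position on the progenitor-to-neuron axis, with exact 95% Poisson intervals for counting error as bars. *Rspo3* is 1272 and 1404 CPM in the least neuronal clusters and 3.97 and 161 CPM in the most neuronal ones.

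Basal progenitor-like cells and the other neurons held less *Rspo3* than the CR-like class. *Rspo3* was 54.0 CPM (48.4-60) in basal progenitor-like cells of the septal explants and 258 CPM (243-273) in those of the telencephalic vesicle, 98.2 and 106 CPM in septal glutamatergic neuron-like cells, and 59.9 and 172 CPM in pallial glutamatergic neuron-like cells. *Wnt7b* was 98.7 and 129 CPM in pallial glutamatergic neuron-like cells but 9.78 and 8.02 CPM in the septal ones. GABAergic neuron-like cells were low for both genes, at 1.84 and 9.50 CPM of *Rspo3* and 6.26 and 3.17 CPM of *Wnt7b*. They were the neurons with the most *Wnt7a*, at 13.3 (9.28-18.3) and 13.6 CPM (10.7-17.1).

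Hem-like cells held several members each. The median hem-like cell held UMIs of 5 of the 10 members (septal explants) and 7 (telencephalic vesicle), and 58.8% and 95.1% of cells held at least 5. Septal-like APs held a median of 1 in both, and 1.96% and 6.33% of them held at least 5. Pallial-like APs held at least 5 in 4.67% and 12.7% of cells. Choroid plexus-like cells came closest, with medians of 2 and 5, and 32.9% and 67.9% of them held at least 5. Hem-like cells were deeper than septal-like APs, at medians of 17148 against 12835 and 12489.5 against 12064 UMIs. Of the septal explants, 65 hem-like cells held both *Wnt3a* and *Rspo2*, 86.7% of the cells with *Wnt3a* and 77.4% of those with *Rspo2*. If the genes were independent among cells of similar depth, 45.2 were expected (ratio 1.44, 1.11-1.83). *Rspo2* and *Lmx1a* were together in 27 hem-like cells there, against 16.8 expected (1.61, 1.06-2.34). The ratio intervals of all other member pairs in that library included 1. An overlap cannot exceed the number of cells with the rarer gene. For widely found genes an interval that includes 1 therefore does not show independence. *Wnt3a* and *Rspo3* were together in 74 of the 75 cells with *Wnt3a* (63.1 expected). *Rspo2* and *Rspo3* were together in 82 of the 84 cells with *Rspo2* (70.8 expected). In the telencephalic vesicle *Wnt3a* with *Rspo2* and *Rspo2* with *Lmx1a* were found in 295 and 412 hem-like cells, with 293 and 411 expected. *Rspo2* was in 466 of the 470 hem-like cells there. Observed and expected counts were thus bound to be close, and no lack of association can be read from them. Cells of one library share their source, so these counts describe 1 pool of embryos each.

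In the septal explants the embryo of origin could be read only from the reporters. YFP was carried by the E11.5 embryos, and tdTomato by the E12.5 embryos, where it marks the *Dbx1* lineage. Of the hem-like cells, 137 held at least 3 YFP UMIs, 26 held none and 5 held at least 1 tdTomato UMI. A single UMI does not settle the origin of a cell. The tdTomato cells were taken without regard to YFP, so they can also be counted in another of these groups. *Rspo1* was 822, 794 and 789 CPM in the 3 groups, *Wnt8b* 494, 459 and 380, *Rspo2* 126, 101 and 87.7, and *Rspo3* 461 (435-487), 324 (273-381) and 253 CPM (165-371). *Rspo3* was thus lower beyond counting error in cells without YFP, whereas the intervals overlapped for *Rspo1*, *Wnt8b*, *Wnt3a* and *Rspo2*. In pallial-like APs, *Rspo1* was 178 CPM (162-195) with YFP (116 cells) and 93.4 (84.3-103) without (256 cells), *Wnt7b* 81.1 and 47.3, and *Wnt8b* 119 and 76.9 CPM. Median depth was 21877.5 and 14426 UMIs in these cells, age and genotype go together, and different clusters can make up each group, so the differences cannot be told apart from these.

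The genes whose level followed each member most closely across the 32 and 30 clusters were ranked by the smaller of 2 Pearson correlations among 12788 genes. Clusters of one library share its depth and its free RNA, so the correlations are descriptions. *Wnt3a* was nearest to *Folr1* (0.914 and 0.912) and *Wnt9a* (0.864 and 0.923), and *Rspo2* to the same pair (0.863 and 0.945 for *Folr1*). *Wnt8b* was nearest to *Sp5* (0.776 and 0.916), a transcription factor gene induced by Wnt signalling, *Rspo1* to *Id3* (0.848 and 0.80), and *Rspo3* to *Dmrt1* (0.830 and 0.835) and *Lrp1b*. *Wnt7a* was nearest to the radial glia genes *Id4* (0.794 and 0.815) and *Ptprz1*, and *Wnt7b* to *Dmrt3* and *Dmrta2*, with *AU022754*, which overlaps *Wnt7b* on the opposite strand, next (0.734 and 0.894). The nearest genes of *Lmx1a* (*4930523C07Rik*, 0.657 and 0.651), *Wnt5a* (*Aard*, 0.623 and 0.648) and *Wnt2b* (*Dok5*, 0.446 and 0.413) were less close. *Id3* and *Folr1* were on the marker lists of the hem and choroid plexus, and *Dmrt3* and *Dmrta2* on the pallial list.

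The other genes of the pathway were counted in the same comparison of hem-like cells with other regional progenitors. Among all genes tested there, 2.93% and 5.72% were higher and 4.15% and 7.31% lower. Of 14 other ligands (13 Wnts and *Rspo4*), 2 were higher and 1 lower in the septal explants and 3 and 0 in the telencephalic vesicle, with 10 under the minimum in each. *Wnt9a* was 39.2-fold higher (37.3 against 0.951 CPM) and 77.9-fold (108 against 1.38 CPM), *Wnt4* 2.67-fold (1.19-5.44) and 14.6-fold (12.1-17.5), and *Wnt5b* was within 2-fold in both, at 32.0 against 34.0 CPM and 138 against 110 CPM. *Wnt1* had 0 UMIs in hem-like cells of the septal explants and 102 in the others, at least 3.18-fold lower.

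Of the 2 genes of Wnt secretion, *Wls*, the carrier that takes Wnts to the cell surface, was 20.1-fold higher (190 against 9.45 CPM) and 19.4-fold higher (484 against 24.9 CPM) in hem-like cells. *Porcn*, which attaches the lipid, was within 2-fold (1.18 and 1.16). Of 17 receptors and co-receptors, 3 were higher and 2 lower in the septal explants and 4 and 2 in the telencephalic vesicle. Within 2-fold were 8 and 10, among them *Fzd2*, *Fzd3*, *Ryk* and *Lrp6*, and 4 and 1 were under the minimum. *Fzd1* was higher in both (2.36-fold and 2.41-fold), *Fzd7* and *Fzd9* in the septal explants (2.78-fold and 2.42-fold), and *Fzd10* (31.6-fold, 23.5-42.9), *Ror1* and *Fzd6* in the telencephalic vesicle. *Fzd8* was lower in both (0.231, 0.136-0.368, and 0.131, 0.107-0.159), and *Fzd5* had 0 UMIs against 153 in the septal explants, at least 4.77-fold lower, and a ratio of 0.108 (0.0464-0.214) in the telencephalic vesicle.

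Of the 5 R-spondin receptors and ligases, 0 were higher and 1 lower in the septal explants and 1 and 2 in the telencephalic vesicle. Another 3 and 1 were under the minimum. *Lgr4*, a receptor of R-spondins, was lower in hem-like cells in both, at 1.85 against 9.91 CPM (0.186, 0.0679-0.410) and 7.51 against 45.8 CPM (0.164, 0.131-0.203). *Lgr5* was lower in the telencephalic vesicle (0.184, 0.0496-0.478, from 4 UMIs in hem-like cells) and *Rnf43* higher (2.88-fold, 1.62-4.91, from 19 UMIs), and *Znrf3* was within 2-fold in both, at 17.9 against 12.9 CPM and 198 against 128 CPM. The cells with most R-spondin mRNA thus held less *Lgr4* mRNA than other regional progenitors.

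In neurons, 0 of the 17 receptors were higher and 8 and 11 were lower than in progenitors, where 17.8% and 16.9% of all genes were higher and 16.4% and 19.8% lower. In the septal explants 3 of the 17 were under the minimum. *Wls* was lower (0.413 and 0.285), whereas *Porcn* was higher (2.5-fold and 2.36-fold). *Wnt10a* was 45.2-fold (19.8-127) and 16.2-fold higher (10.1-26.4) in neurons, though at 5.48 and 3.62 CPM.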

How the data were processed

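Septal explants (1 library, 10x Chromium kit v2, about 10000 input cells) and telencephalic vesicles (1 library, kit v3.1, about 20000 input cells) of mouse embryos were dissociated and profiled by the authors. The deposited matrices hold raw UMI counts per gene and barcode, made with Cell Ranger 2.1.1 and 7.1.0 on mm10, per the labels and the submitters' processing notes. Whether version 7.1.0 also counted reads within introns is not given in the sources used here. Total UMIs were 83103280 in 5827 barcodes and 194821794 in 14283 barcodes.

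Barcodes more than 3 median absolute deviations from the median mitochondrial share were removed, and simulated doublets were called with Scrublet in Scanpy 1.11.5 (60 and 713 barcodes, 1.10% and 5.72%). Cells were scaled to 10000 UMIs, log-transformed after adding 1, and clustered by the Leiden method (2000 variable genes, 30 components, 15 neighbours, resolution 1.5). The 10 members, 39 pathway genes, cell cycle, sex and reporter genes were left out of clustering. Clusters were named "-like" from marker lists, with at least 3 markers that 5% of the cells held and that were at least 1.5 times as high as in the mean of the other clusters. This naming rule was revised after the clusters had been seen, so that regional lists competed with each other. The members and lists were chosen with earlier results of these data known. CPM is computed from summed UMIs. No test was made, because each condition had 1 library. The counting intervals were checked on counts simulated as Poisson. That checks the computation only, since such counts hold no added spread between cells or embryos.

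Named were all 10 members, pathway genes past 2-fold in both libraries or with the highest CPM of their group, and others behind a small count (*Wnt1*, *Lgr5*, *Rnf43*, *Fzd6*, *Fzd7*, *Fzd9*, *Fzd10*, *Ror1*, *Wnt10a*), chosen after their values were seen. For each member, up to 3 genes outside the list were named, from the top of the ranking by the smaller correlation of log2(CPM + 1) over clusters. The background was all genes whose summed UMIs reached 50 in a comparison. Shares were also computed after thinning cells to 8000 and 3500 UMIs. Wnt ligands are not compared in level with each other: 3′ UMI counts do not scale with transcript length, but capture differs between genes. *Gpr124* had no row of that symbol. Reporter rows were used only to separate embryos, and alternatives to the cell filters, clustering, classes, level and depth were run. Leaving out the 3 clusters that scored higher for another class was added after seeing the data.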

Additional observations from a re-analysis of the deposited data

Results flagged for a closer look

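*Wnt7a* was higher in pallial-like than in subpallial-like APs of the septal explants, 2.29-fold (1.75-2.99), and lower in the telencephalic vesicle, at a ratio of 0.469 (0.410-0.535). Without 2 subpallial-like clusters of the septal explants that scored higher for septal markers, the ratio there was 1.74 (1.33-2.27), within 2-fold. The same comparison thus went opposite ways in the 2 libraries, and since each is 1 pool of embryos the difference was not tested. Tissue dissected, stage, kit and Cell Ranger version differed between the libraries and cannot be told apart.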

How the results depend on the processing

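Of the 10 members, 7 or 8 were at least 2-fold higher in hem-like cells than in other regional progenitors in each library under all 14 settings, while the hem-like class itself ranged from 89 to 293 cells and from 367 to 721. The number highest in hem-like cells ranged from 5 to 8 in both libraries. In the septal explants it was 5 in place of 8 once choroid plexus-like cells were counted among the classes, an alternative chosen after seeing the data, because *Wnt3a*, *Rspo2* and *Lmx1a* were higher there. Among ratios past 2-fold, the single change of direction was *Wnt7a* in the septal explants, whose hem-like ratio was 1.07 at Leiden resolution 0.8 (0.224 as reported). Of the neuron ratios within 2-fold, *Rspo3* and *Wnt7b* of the telencephalic vesicle (1.03 each) ranged from 0.692 to 1.28 and from 0.871 to 1.37, and *Wnt5a* of the septal explants (0.936) from 0.825 to 1.07. The call was kept in 114 of 116 and 122 of 129 values of the hem-like ratios and in 103 of 107 and 109 of 119 values of the neuron ratios. The values themselves moved more than their counting intervals in 59 and 75 of the hem-like ratios and in 11 and 32 of the neuron ratios. Leaving out 3 clusters of the septal explants that scored higher for another class, also chosen after seeing the data, took *Rspo3* in CR-like over hem-like cells from 0.785 to 1.47 and *Wnt7a* in pallial-like over subpallial-like APs from 2.29 to 1.74. The calls that changed were those of *Wnt5a* and *Wnt7a* in hem-like cells of the septal explants, *Wnt2b* in the telencephalic vesicle, and *Wnt7a*, *Wnt7b*, *Lmx1a*, *Wnt5a* and *Wnt2b* in neurons. *Wnt5a* in neurons of the telencephalic vesicle, for example, was 0.346 as reported and 0.594 with all deposited barcodes. The causes were not tested. No paired analysis was possible because each group was 1 library. Depth limits *Wnt2b*, *Wnt7a* in hem-like cells and *Lmx1a* in the septal explants, which rest on fewer than 50 UMIs in the class.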

Other observations

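*Lmx1a* was found in a class outside the nervous system. Erythroid-like cells held 53.5 CPM of *Lmx1a* (38.0-73.1) in the septal explants (15 of 26 cells with a UMI) and 53.6 CPM (45.5-62.8) in the telencephalic vesicle (117 of 400 cells, 29.2%), with 49.5 and 57.4 CPM in its 2 erythroid-like clusters. In the septal explants this was above the hem-like level of 15.1 CPM. The same cells held 0 UMIs of *Wnt3a* in both libraries and 0 and 2.08 CPM of *Rspo2*, although the latter was 124 and 1202 CPM in hem-like cells. No other gene overlaps *Lmx1a* in the annotation used. GABAergic neuron-like cells held 0.368 and 2.05 CPM of *Lmx1a*.

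Macrophage-like cells of the telencephalic vesicle (72 cells) held 81.0 CPM of *Rspo3* (66.4-97.9) and 60.6 CPM of *Rspo2* (48.0-75.4), from 11.1% and 8.33% of the cells, whereas endothelial-like and erythroid-like cells of that library held 5.36 and 4.15 CPM of *Rspo3*. The 107 UMIs of *Rspo3* lay in 8 cells.

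Between the median ratios of hem-like levels already given for the shortest and longest genes, the ratio of the telencephalic vesicle over the septal explants was 0.867 for 3277 genes from 10 to 30 kb and 1.43 for 2512 genes from 30 to 80 kb. Among 1722 genes of 80 kb and over the quartiles were 1.85 and 5.93, and *Lmx1a* at 19.6 and *Rspo2* at 9.69 lay above them while *Rspo3* at 3.55 lay between them. This comparison was added after the levels had been seen.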
